A study of Saccharomyces cerevisiae with 12 samples.

Results

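Late carbon starvation is described here across all genes of budding yeast, from the 3 arrays (of 12 in the series) that compared cells starved of glucose for 2, 4 and 8 h with the same strain before starvation. The 3 arrays were chosen by their labels. The cells were FY4, a prototrophic MATa derivative of the laboratory strain S288C, grown as filter cultures, in which a membrane carrying the cells lies on agarose medium and can be lifted from plate to plate. The zero timepoint was exponential growth on minimal medium (YNB) with glucose and ammonium, and the carbon-starved filters lay on the same kind of medium with ammonium and without glucose. For contrast, the 3 arrays of filters moved for 2, 4 and 8 h to medium with glucose and without ammonium (nitrogen starvation) were used in the last comparison. All groups were the same strain, with no mutation or drug, and each array held 1 filter time point.
Budding yeast grown on glucose ferments it to ethanol even in air, and glucose represses the genes for respiration, for growth on other carbon sources and for storage and stress protection. When glucose is gone, the kinase Snf1 becomes active and the activators Cat8 and Adr1 turn on genes for the use of ethanol, acetate, lactate and fatty acids. The Ras and protein kinase A pathway, which drives ribosome production in the presence of glucose, becomes less active, and the activators Msn2 and Msn4 turn on a common set of stress genes. These statements are textbook background and not results of the arrays.
Every hybridisation set Cy5-labelled (red) poly(A)+ RNA from starved cells against Cy3-labelled (green) RNA from before starvation, and the value of a gene is log2 of red over green, so that 1 is a 2-fold rise and -1 a 2-fold fall. Each array was scaled so that the red and green totals were equal, which makes every value relative to the other transcripts and says nothing about the amount of mRNA per cell. Of the 10263 non-control spots, 84.8 to 91.6% had a red signal clearly over background (as the scanner software calls it) and 85.9 to 86.9% a green one. Genes printed in duplicate differed between their spots with an SD of 0.12 to 0.14, and the 3 arrays correlated across genes with r of 0.93 to 0.96 (genes are not independent replicates, and the arrays share the kind of reference). No time point was replicated and no dyes were swapped, so the 3 times served as the observations (n = 3). The zero timepoint enters without a spread of its own. Each standard error (SE) includes the course over time. It is the moderated SE of the program limma, which draws the variance of a gene toward a value shared by all genes. It is therefore not the spread of that gene's own 3 values. FBP1 and CAT8 had SDs over the 3 times of 1.59 and 0.14, but SEs of 0.41 and 0.26. The strain was checked against its markers: all 6 markers of MATa cells were well above background in the green channel on all 3 arrays, of 4 MATalpha markers the alpha-factor genes MF(ALPHA)1 and MF(ALPHA)2 were so on none and STE3 and SAG1 on all 3 (both rose, with means of 1.07 and 1.26), and 7 of 7 nutritional marker genes often deleted in laboratory strains were detected in either dye at every time.
Of 5597 genes with a value on all 3 arrays, 1774 rose and 2109 fell at a Benjamini-Hochberg adjusted p under 0.05 by limma, which is 31.7% and 37.7% of the genes tested. Of these, 1391 rose and 1724 fell by at least 2-fold, and 359 rose and 477 fell by at least 8-fold. The median of all genes was -0.09, and 4519 genes had the same sign at 2, 4 and 8 h. With the background modelled another way (normexp with equal totals) the median of all genes moved to 0.11 and the split to 1995 raised and 1569 lowered, so list medians below are read against the median of all genes. A normexp background also moved 20 of 38 list medians (21 with loess in place of equal totals) by more than the spread between arrays. Where that changed a list's median or count by over 1.5 times, both values are given for many lists, but not for every small count. With normexp and equal totals, for example, members lowered went from 6 to 1 for the mitochondrial ribosome. Members raised went from 2 to 4 for ergosterol and from 6 to 2 for meiosis.
Ranked among called genes with both channels above background on all 3 arrays, the largest rises were led by genes for the uptake and activation of acetate, lactate and fatty acids. Values are given in the order 2, 4 and 8 h. ACS1, the acetyl-CoA synthetase used on poor carbon sources, stood at 7.92, 9.42 and 8.75 (mean 8.70 ± 0.30 SE, n = 3; 415-fold; adjusted p = 8.88e-12). POT1, the thiolase of peroxisomal beta-oxidation, stood at 7.13, 9.63 and 8.24 (mean 8.34 ± 0.36). JEN1, the lactate and pyruvate permease, stood at 6.99, 9.04 and 8.25 (mean 8.09 ± 0.33). In each of these genes the 2 h array was the lowest and the 4 h array the highest. The acetate transporter ADY2 stood at 6.13, 9.49 and 8.70 (mean 8.10 ± 0.44), with its red spot saturated on 2 arrays. The malate synthase MLS1, of the glyoxylate cycle, stood at 7.67, 9.70 and 6.50 (mean 7.96 ± 0.42), and here the 8 h array was the lowest. FAT3, needed for fatty acid uptake, stood at 6.80, 9.00 and 7.95 (mean 7.92 ± 0.34).
The other 4 of the first 10 were in genes outside carbon uptake. SPG1, which is required for survival in stationary phase, stood at 6.88, 10.02 and 8.71 (mean 8.54 ± 0.41), and it had the highest value of the 10 genes on any array. TMA10, whose protein associates with ribosomes, stood at 6.43, 9.32 and 8.95 (mean 8.23 ± 0.41; red saturated on 1 array). PHM7, of unknown function, stood at 7.26, 9.22 and 7.84 (mean 8.11 ± 0.33). YBR116C, an open reading frame with no entry in the R64 gene table, stood at 7.01, 9.56 and 7.89 (mean 8.15 ± 0.37). Its systematic name is next to that of the transketolase TKL2 (YBR117C), which had a mean of 6.93, and the strand and overlap of the pair were not examined. SPG4, another stationary phase gene, had a mean of 8.52 with its green signal above background on only 2 arrays, and so is outside the ranking.

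**Figure D1:**
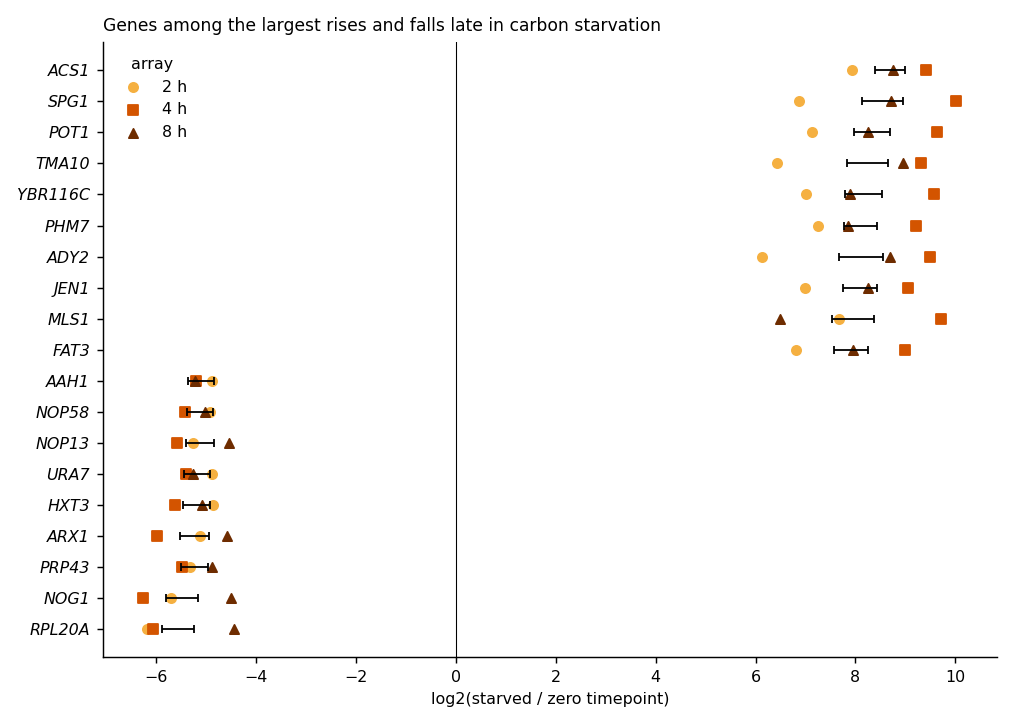
Log2(starved / zero timepoint) of the 10 genes with the largest mean rise and 9 of those with the largest mean fall, called, with both channels above background on all 3 arrays; circles are 2 h, squares 4 h, triangles 8 h, and bars the mean ± SE (n = 3). ACS1 has the highest mean, 8.70, and RPL20A the lowest shown, -5.56.

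By the same ranking, large falls were in genes of ribosome assembly, nucleotide synthesis and glucose uptake. The ribosomal protein gene RPL20A stood at -6.19, -6.06 and -4.44 (mean -5.56 ± 0.32; 47.3-fold lower; adjusted p = 3.97e-10). The GTPase NOG1, which acts in assembly of the large ribosomal subunit, stood at -5.71, -6.26 and -4.50 (mean -5.49 ± 0.32). In both of these the 8 h array was the nearest to 0. The low-affinity glucose transporter HXT3 stood at -4.87, -5.63 and -5.08 (mean -5.19 ± 0.27). The CTP synthase URA7 stood at -4.88, -5.40 and -5.27 (mean -5.19 ± 0.26). The helicase PRP43, the export factor ARX1, the nucleolar proteins NOP13 and NOP58 and the adenine deaminase AAH1 were also among the largest falls, with means from -5.23 to -5.10.
The genes for making sugar from smaller carbon compounds rose together. Of 15 genes of gluconeogenesis, the glyoxylate cycle and their activators, 14 rose and 1 fell, with a median of 6.01 against -0.09 for all genes. The gluconeogenic fructose-1,6-bisphosphatase FBP1 stood at 6.30, 9.13 and 6.47 (mean 7.30 ± 0.41; adjusted p = 2.86e-10). PCK1, the phosphoenolpyruvate carboxykinase, stood at 5.67, 7.02 and 5.35 (mean 6.01 ± 0.31), and its green signal was above background on only 2 of the 3 arrays. ICL1, the isocitrate lyase of the glyoxylate cycle, stood at 6.57, 6.86 and 4.88 (mean 6.11 ± 0.34; red saturated on 1 array). None of these 3 genes came near 0 at any time. Of the activators, CAT8 stood at 5.49, 5.34 and 5.21 (mean 5.34 ± 0.26) and ADR1 at 4.19, 4.76 and 3.52 (mean 4.16 ± 0.29), while the activator SIP4 was never above background in the green channel and was at least 8.63-fold higher. The member that fell was the malic enzyme MAE1, with a mean of -2.83.
Of 19 genes of peroxisomal beta-oxidation and the carnitine acetyl shuttle, 18 rose and none fell, with a median of 6.25. The peroxisomal catalase CTA1 stood at 6.71, 8.94 and 7.95 (mean 7.87 ± 0.34; 233-fold). FOX2, the multifunctional enzyme of the pathway, stood at 5.98, 6.68 and 6.28 (mean 6.32 ± 0.27). The carnitine acetyltransferases CAT2, YAT1 and YAT2 had means of 6.38, 6.25 and 5.94, and the mitochondrial acetylcarnitine carrier CRC1 one of 7.18. The smallest values were in the oleate-responsive activator PIP2 (mean 1.80), the fatty acid activating enzyme FAA1 (mean 1.03) and OAF1, the partner of PIP2 (mean 0.49), which did not pass the test.
The 22 hexose transporters and glucose sensors did not move as a block. Of the 14 tested, 8 rose and 6 fell, and the other 8, HXT8 and HXT10 to HXT16, had no value on at least 1 array. HXT5, the transporter of slow-growing cells, stood at 6.64, 8.74 and 7.73 (mean 7.70 ± 0.33; red saturated on 1 array). HXT6 and HXT7, nearly identical high-affinity transporters whose probes cannot be taken as independent, had means of 3.58 and 3.39. HXT1, which is used at high glucose, stood at -4.37, -4.95 and -4.64 (mean -4.65 ± 0.26). HXT1 and HXT3 thus lay below 0 and HXT5, HXT6 and HXT7 above it at every time, while HXT2 and HXT4, which are induced by low glucose, had means of -1.72 and -0.94. The high-affinity glucose sensor SNF3 had a mean of 3.56 and the low-affinity sensor RGT2 one of -0.81. Of the sensors' targets, MTH1 rose (mean 2.25) and STD1 fell (mean -2.45).
Genes for other sugars rose with lower values. Of 14 genes for sucrose, galactose and maltose on the array 9 had a value at every time, and 7 of these rose and 1 fell. In 4 of the 7 the green signal was never above background, so that they had a value only through the starved channel and the count is no measure of the list. The maltose permease MAL31 stood at 3.21, 3.36 and 3.13 (mean 3.23 ± 0.26). GAL3, GAL7 and the maltose activator MAL33 were never above background in the green channel and were at least 6.1-fold, 7.4-fold and 20.6-fold higher, respectively. The member that fell was the invertase SUC2, at 0.07, -1.21 and -1.60 (mean -0.91 ± 0.31; adjusted p = 0.0161), a call that was lost under 5 alternatives, the fits without the 4 h or without the 8 h array among them. The maltose genes have near-identical copies in the genome, which these probes may share.
Among 16 genes of the Snf1 kinase and glucose repression, 5 rose, 4 fell and 7 did not pass the test (10 rose and 2 fell with normexp and equal totals). The shares raised and lowered were 31.2% and 25%, beside 31.7% and 37.7% of all genes. SNF1 itself stood at 1.27, 1.42 and 0.59 (mean 1.09 ± 0.27; 2.13-fold). MIG1, the main glucose repressor, stood at 0.86, 0.22 and 0.42 (mean 0.50 ± 0.27; adjusted p = 0.103, but past the threshold with each of the 5 other normalizations). Its relative MIG2 stood at -4.01, -4.28 and -4.18 (mean -4.16 ± 0.26; 17.9-fold lower). The values of MIG2 lay below those of SNF1 and MIG1 at every time. Of the hexose kinases counted in this list, HXK1 and the glucokinase GLK1 rose and HXK2 fell; the GLK1 region overlaps another reading frame.

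**Figure D2:**
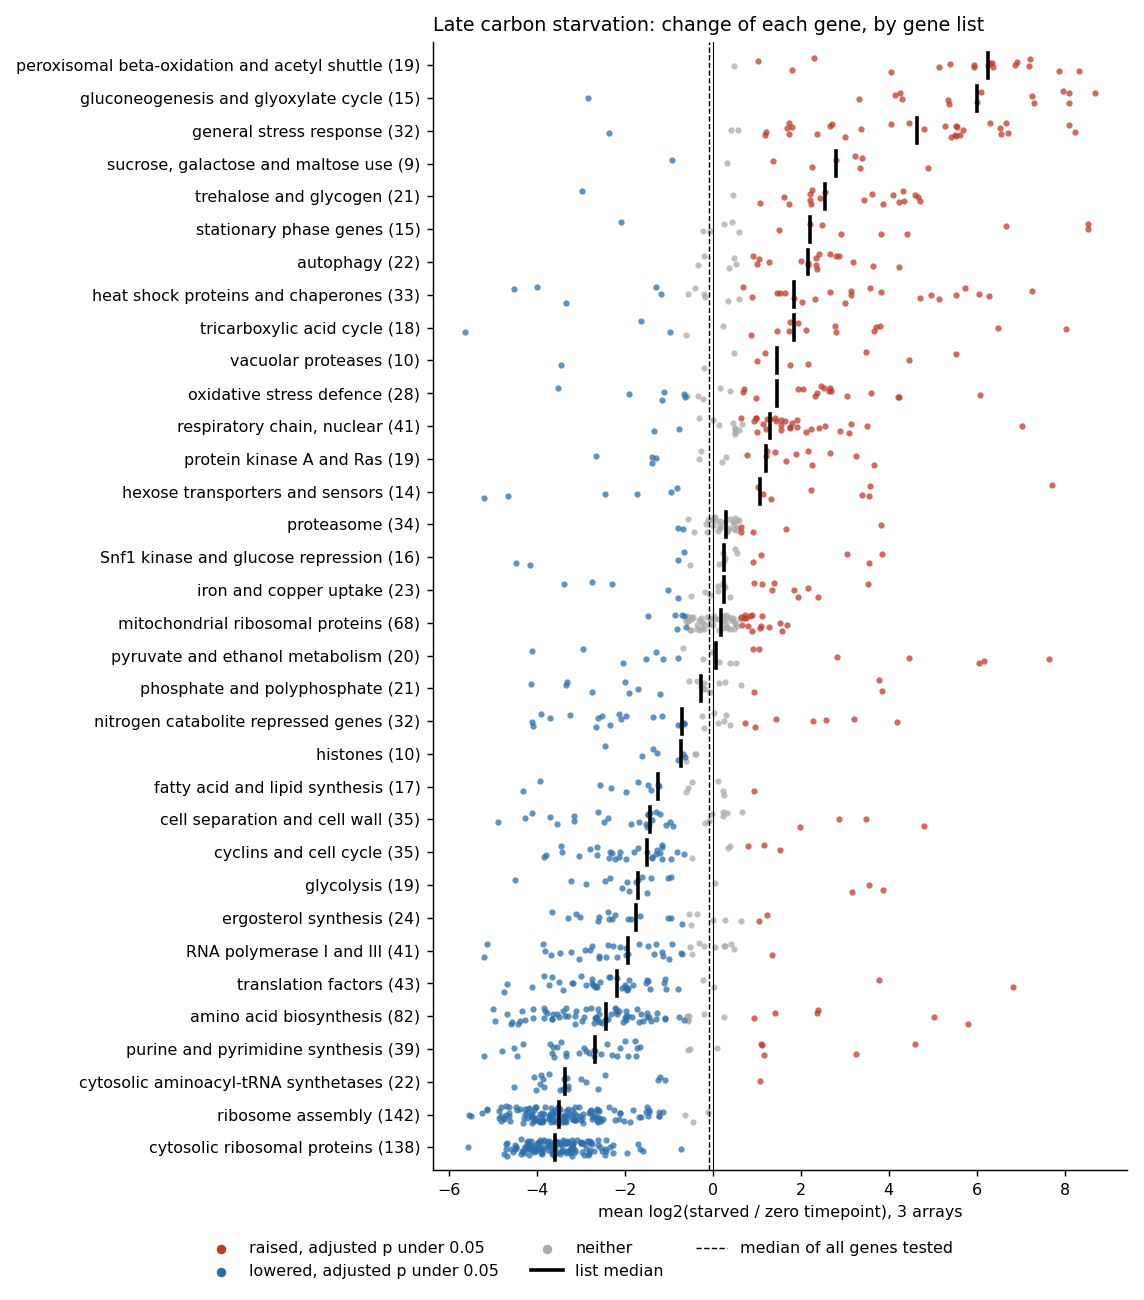
Mean log2(starved / zero timepoint) over the 3 arrays of each gene tested, by gene list (number of genes in brackets), in red where raised, in blue where lowered and in grey where neither passed the test; black bars are list medians and the dashed line is the median of all genes, -0.09. The medians of the lists of poor-carbon use lie above 6 and those of the cytosolic ribosome lists below -3.

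Glycolysis fell as a list, but a few related enzymes in it parted. Others moved together: PFK1 and PFK2 both fell, as did ENO1 and ENO2. Of 19 genes, 15 fell and 3 rose, with a median of -1.69 (8 fell, with a median of -1.09, with normexp and loess). The pyruvate kinase CDC19 stood at -3.54, -3.75 and -1.32 (mean -2.87 ± 0.38). The glyceraldehyde-3-phosphate dehydrogenase TDH3 stood at -2.29, -2.19 and -0.60 (mean -1.69 ± 0.32); its near-identical relative TDH2 may share signal with it. In both the 8 h array was nearer to 0 than the others. The 3 members that rose were PFK26 (mean 3.88), FBP26 (mean 3.17) and GPM2 (mean 3.56): the first makes and the next degrades fructose-2,6-bisphosphate, the signal that favours glycolysis over gluconeogenesis, and GPM2 is a relative of phosphoglycerate mutase. PFK27, the other kinase that makes this signal, stood at -4.15, -4.59 and -4.71 (mean -4.49 ± 0.26), the largest fall of the list, with its red signal above background on 2 arrays.
Of 20 genes between pyruvate, acetaldehyde, ethanol and acetate, 7 rose and 7 fell (4 fell with normexp and loess). These shares, 35% each, were near the 31.7% raised and 37.7% lowered of all genes. The median, 0.07, changed sign without the 2 h array (-0.19). ADH2, the alcohol dehydrogenase that oxidises ethanol, stood at 5.52, 9.23 and 8.17 with its red spot saturated on all 3 arrays, so that it was at least 199-fold higher. ADH1, the fermentative enzyme with a closely similar sequence, stood at -1.28, -0.71 and -0.40 (mean -0.80 ± 0.27; adjusted p = 0.0159), a call lost under 7 alternatives. The pyruvate decarboxylase PDC1 stood at -3.02, -2.58 and -0.53 (mean -2.05 ± 0.37). The mitochondrial acetaldehyde dehydrogenase ALD4 stood at 4.96, 6.64 and 6.59 (mean 6.07 ± 0.32; red saturated on 1 array), and the mitochondrial ALD5 at -4.17, -4.16 and -4.01 (mean -4.11 ± 0.26).
This parting of related enzymes was followed in 35 pairs of isozymes or paralogs. The first of each pair is, with exceptions such as CYC1, the form better known from growth on glucose. In 20 pairs the first gene fell and the other rose, in 6 both rose, in 3 both fell, and in 6 a member did not pass the test. The pairs were picked with earlier results of these data known, so the counts describe the pairs and are read beside the 31.7% raised and 37.7% lowered of all genes. The opposite calls of the pairs that include ADH1, ALD6, CYC1, GPD2, PDC1 and TSA1 were lost under at least 1 alternative, since the fall of that member was. The values of PDC6 and GPX1 rest on a green signal that was never above background, and those of ADH2 on a saturated red signal.
The pairs of the pentose phosphate pathway were among the widest apart. The transketolase TKL1 had a mean of -4.77 and TKL2 one of 6.93. The 6-phosphogluconate dehydrogenase GND1 had a mean of -3.51 and GND2 one of 5.24. The transaldolase TAL1 had a mean of -2.22 and its relative NQM1 one of 7.63. At all 3 times every first member of these pairs was below 0 and every other member above 4. Of the sugar kinases, HXK2, the hexokinase of glucose growth, stood at -4.16, -5.16 and -4.10 (mean -4.47 ± 0.28), and HXK1 at 4.23, 3.02 and 3.39 (mean 3.55 ± 0.29).
In nitrogen assimilation, the NADP-dependent glutamate dehydrogenase GDH1 stood at -4.62, -4.93 and -5.31 (mean -4.95 ± 0.27) and its isozyme GDH3 at 4.79, 5.18 and 5.12 (mean 5.03 ± 0.26). Among chaperones, the Hsp70 gene SSA2 had a mean of -3.33 and SSA3 one of 3.83. In translation, the elongation factor 3 gene YEF3 had a mean of -4.74 and its relative HEF3 one of 6.83, a pair that was outside the 35. Among the pairs that moved together, the glycerol-1-phosphatases GPP1 and GPP2 both fell, to -2.15 and -2.34.

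**Figure D3:**
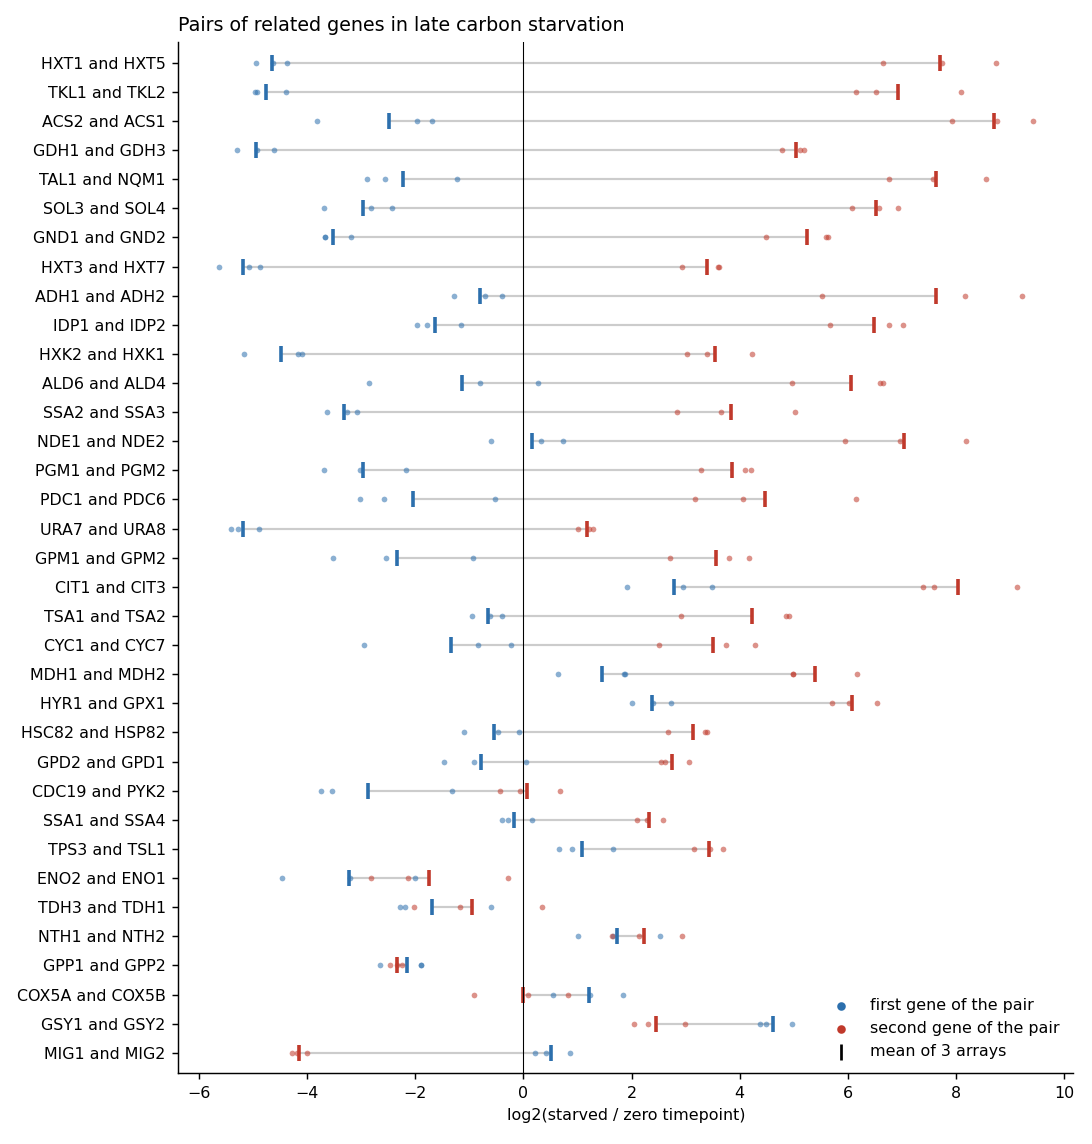
Log2(starved / zero timepoint) of 35 pairs of related genes, the first gene of each pair in blue and the other in red; dots are the 3 arrays, vertical marks their mean, and pairs are ordered by the gap between the means. HXT1 and HXT5 are farthest apart, 12.35 (log2), and at the other end MIG2 lies below MIG1.

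The citric acid cycle and the nuclear genes of the respiratory chain rose, with exceptions. Of 18 genes of the cycle and its isozymes, 13 rose and 3 fell, with a median of 1.85. SDH2, a subunit of succinate dehydrogenase, stood at 4.42, 3.51 and 3.44 (mean 3.79 ± 0.28), and the citrate synthase CIT1 at 3.48, 2.95 and 1.92 (mean 2.78 ± 0.30). CIT3, a mitochondrial isozyme of citrate synthase, stood at 7.38, 9.12 and 7.60 (mean 8.04 ± 0.32). Its green signal was above background on only 2 arrays, so it is outside the ranking of the largest rises. The subunits IDH1 and IDH2 of isocitrate dehydrogenase had means of -0.60, which did not pass the test, and -0.98. Of 41 respiratory genes, 29 rose and 2 fell, with a median of 1.29. NDE2, an external NADH dehydrogenase, led them at 5.94, 8.18 and 6.97 (mean 7.03 ± 0.34), and HAP4, the activator of respiratory genes, stood at 2.11, 2.50 and 0.78 (mean 1.80 ± 0.32). The nuclear genes of the mitochondrial ribosome moved little: of 68 genes, 16 rose, 6 fell and 46 did not pass the test, with a median of 0.20 (0.33 with normexp and equal totals). The 16 were 4 without the 2 h array, 6 without the 4 h array, 26 without the 8 h array and 27 with normexp and equal totals.
Storage and protection genes rose as lists. Of 21 genes of trehalose and glycogen metabolism, 19 rose and 1 fell, with a median of 2.55, and both synthesis and breakdown were among them: the branching enzyme GLC3 had a mean of 4.67, the glycogen synthase GSY1 one of 4.61, the acid trehalase ATH1 one of 4.71 and the glycogen phosphorylase GPH1 one of 2.55. Of 32 genes of the general stress response, 29 rose and 1 fell, with a median of 4.64. The cytosolic catalase CTT1 stood at 6.20, 7.63 and 6.32 (mean 6.72 ± 0.30) and the membrane protein gene HSP12 at 6.14, 5.83 and 4.73 (mean 5.56 ± 0.30). The transcripts of their activators had means of 0.41 for MSN2 and 0.58 for MSN4, neither past the test.
Chaperones moved in both directions. Of 33, 22 rose and 5 fell, with a median of 1.85. The small heat shock protein gene HSP26 stood at 6.94, 7.30 and 7.54 (mean 7.26 ± 0.26; adjusted p = 8.88e-12) and the disaggregase HSP104 at 5.25, 4.90 and 4.74 (mean 4.96). The ribosome-associated Hsp70 genes SSB1 and SSB2 fell, to means of -4.51 and -3.98. The mitochondrial chaperones SSC1 (mean -0.21) and HSP60 (mean 0.60) did not pass the test. Of 28 genes of oxidative stress defence, 17 rose and 6 fell, with a median of 1.46, from the thioredoxin reductase TRR1 at a mean of -3.51 to the glutathione peroxidase GPX1, which was at least 34.9-fold higher because its green signal was never above background.
Of 22 autophagy genes, 17 rose and none fell, with a median of 2.17 (0.70 with normexp and loess). In 3 of the 17 the green signal was never above background, so that they had a value only through the starved channel. ATG8, the ubiquitin-like protein of the autophagosome, stood at 4.08, 4.53 and 4.12 (mean 4.24 ± 0.26), and the kinase ATG1 at 3.48, 3.76 and 3.72 (mean 3.65 ± 0.26). Of 10 vacuolar proteases and their inhibitors, 7 rose and 1 fell. The largest rises of that list were not in proteases but in the inhibitors PAI3 (mean 5.53), TFS1 (mean 4.47) and PBI2 (mean 3.49), and the carboxypeptidase CPS1 fell to a mean of -3.44. Of 34 proteasome genes, 5 rose, 2 fell and 27 did not pass the test, with a median of 0.30 (0.58 with normexp and equal totals; 11 to 19 rose with the 5 other normalizations, and 2 to 9 when 1 array was left out), and the highest was its transcriptional activator RPN4 with a mean of 3.82.
The cytosolic ribosomal protein genes and the ribosome assembly genes fell in almost every member. All 138 cytosolic ribosomal protein genes tested fell, with a median of -3.57 and a range from -5.56 (RPL20A) to -0.72 (RPL15B); most come as near-identical pairs of copies that a probe may not separate. RPL3, of the large subunit, stood at -4.33, -3.76 and -1.56 (mean -3.22 ± 0.39), and RPS3, of the small subunit, at -4.65, -4.50 and -1.76 (mean -3.64 ± 0.42). Of 142 ribosome assembly genes, 139 fell and none rose, with a median of -3.49 (-2.24 with normexp and equal totals), and the nucleolar methyltransferase NOP1 was the lowest with a mean of -5.53. Of 41 subunits and factors of RNA polymerase I and III, 31 fell, 1 rose and 9 did not pass the test, with a median of -1.93. With normexp and equal totals 5 rose and the median was -0.94. The polymerase I subunits RPA49, RPA135 and RPA190 had means of -5.19, -5.13 and -3.85, and the member that rose was TFC3, of the polymerase III factor TFIIIC, with a mean of 1.36.
Of 43 translation factors, 39 fell and 2 rose, and of 22 cytosolic aminoacyl-tRNA synthetases, 21 fell and 1 rose, with medians of -2.18 and -3.35. Of 82 amino acid biosynthesis genes, 70 fell and 6 rose, with a median of -2.43. The S-adenosylmethionine synthetase SAM1 had a mean of -5.00 and the leucine synthesis gene LEU9 one of -4.67. Of 39 purine and pyrimidine genes, 31 fell and 5 rose, with a median of -2.68. ADE17, of purine synthesis, had a mean of -4.78, and URA10, an isozyme of orotate phosphoribosyltransferase, one of 4.61. Of 24 ergosterol genes, 16 fell and 2 rose, and of 17 genes of fatty acid and lipid synthesis, 10 fell and 1 rose.
Genes of the cell cycle and of growth of the wall fell with smaller values. Of 35 cyclins and cell cycle genes, 29 fell and 3 rose, with a median of -1.50 (19 fell, with a median of -0.62, with normexp and equal totals). The mitotic cyclin CLB2 stood at -3.17, -3.60 and -4.71 (mean -3.83 ± 0.30), and the G1 cyclin CLN2 at -2.61, -3.63 and -2.85 (mean -3.03 ± 0.28), each with its red signal above background on 2 arrays. The 3 that rose were CDH1, an activator of the anaphase-promoting complex (mean 1.53), the G1 factor MBP1 (mean 1.17) and the cyclin-kinase inhibitor SIC1 (mean 0.81). Of 10 histone genes, 7 fell and none rose, with a median of -0.73 (-0.43 with normexp and loess, and 4 fell without the 4 h array). Of 35 genes of daughter separation and the wall, 24 fell and 4 rose. FKS1, the glucan synthase, had a mean of -4.27, and SPI1, a wall protein gene of stationary cells, one of 4.81.
Of 19 genes of protein kinase A, Ras and TOR signalling, 11 rose and 4 fell. The catalytic subunit TPK2 stood at 4.45, 3.08 and 3.46 (mean 3.67 ± 0.29) and TPK3 at -2.31, -3.16 and -2.48 (mean -2.65 ± 0.27). The regulatory subunit BCY1 and the adenylate cyclase CYR1 rose with means of 2.25 and 2.17, and RAS1 fell to a mean of -1.38. Of 21 genes of phosphate use 3 rose and 8 fell (14.3% and 38.1%, beside 31.7% and 37.7% of all genes). The 3 included the phosphate transporter PHO89 (mean 3.85) and the regulator SPL2 (mean 3.78). Of 23 genes of iron and copper uptake 9 rose and 5 fell (39.1% and 21.7%, beside 31.7% and 37.7% of all genes). With normexp and equal totals 2 fell. The 9 included HMX1, TIS11 and FRE2, with means of 3.54, 2.39 and 2.17. The 5 included the high-affinity iron uptake pair FET3 and FTR1, with means of -3.38 and -2.30.
Some genes could be given only a limit, because a channel stayed at background. In 116 genes the green signal was never above background and the red always was, and 74 of these were at least 2-fold higher in starved cells against the lowest measurable green signal. The raised members of the lists of amino acid biosynthesis, trehalose and glycogen, chaperones, and iron and copper uptake include 1 gene each whose green signal was never above background. PEX18, a peroxisomal import factor, was at least 138-fold higher and SHH3, a relative of a succinate dehydrogenase subunit, at least 105-fold. ARO9, an aromatic aminotransferase, and SIP18, a gene of osmotic and drying stress, were at least 40.7-fold and 34.3-fold higher. In 17 genes the red signal was never above background and the green always was, and 13 were at least 2-fold lower, led by YDL228C at least 11.5-fold and the alcohol acetyltransferase ATF2 at least 6.3-fold.
Genes of meiosis, a programme that MATa haploids do not carry out, were mostly too dim to measure before starvation: 10 of 14 were never above background in the green channel. Of the 8 with a value at every time 6 rose, but 5 of these had a value only through the starved channel, so the count is no measure of the programme. REC8, a meiotic cohesin, was at least 6.53-fold higher and IME1, the inducer of meiosis, at least 2.09-fold. The transcription factor NDT80 had both channels above background and stood at 2.27, 2.61 and 1.65 (mean 2.18). The genes SPS4 and SPS1 fell, to means of -3.35 and -0.73. The 6 MATa markers all fell, to a median of -2.01.
Between 2 and 8 h the lists changed in different ways. These differences rest on 1 array a time and were not tested. The median of 8 h minus 2 h over 5134 genes with both channels above background was -0.39, but from -0.04 to 0.19 under 5 other scalings, so lists are given with their range over all 6 scalings. The cytosolic ribosomal proteins had medians of -4.19, -4.01 and -2.51 at 2, 4 and 8 h (range of the median difference 1.52 to 2.36). With equal totals 8 h was above 2 h in 135 of 138 of these genes and in 27.7% of all genes. The share of all genes depends on the scaling, as their median does. Ribosome assembly genes came back less, from -3.72 to -2.97 (range 0.61 to 1.11), and glycolysis went from -1.81 through -2.37 to -0.60 (range 0.56 to 1.60). The aminoacyl-tRNA synthetases stood at -3.32 and -3.29 at 2 and 8 h, and amino acid biosynthesis at -2.36 and -2.38 (ranges -0.10 to 0.68 and -0.20 to 0.48).
The nuclear genes for mitochondrial functions went down over the same hours. The citric acid cycle went from 2.67 to 1.18 (range of the median difference -1.31 to -0.80), the respiratory chain from 1.79 to 0.68 (range -1.28 to -0.61) and the mitochondrial ribosome from 0.46 to -0.42 (range -0.98 to -0.28). In the respiratory chain 8 h was above 2 h in 1 of 41 genes, against 27.7% of all genes with equal totals. The general stress list stood at 4.26, 4.60 and 4.25 (range -0.15 to 0.35).

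**Figure D4:**
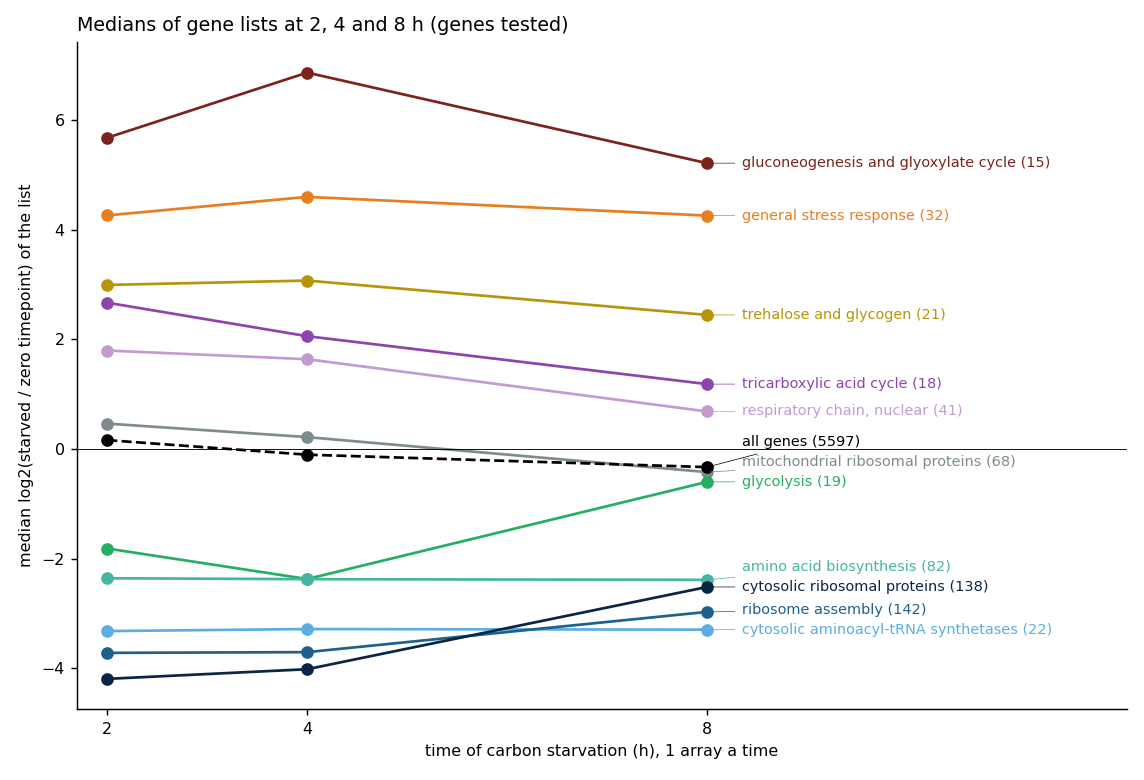
Median log2(starved / zero timepoint) of 11 gene lists and of all genes (dashed) at 2, 4 and 8 h of carbon starvation, 1 array a time, with the number of genes in brackets. The cytosolic ribosomal proteins go from -4.19 to -2.51 and the citric acid cycle from 2.67 to 1.18, while the general stress list ends at 4.25, close to where it began.

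Of single genes with 4 h between the other times, the widest rises from 2 to 8 h were in ATP6 (-2.17, 2.58 and 2.84) and ATP8 (-1.63, 2.38 and 2.47), subunits of the ATP synthase that are encoded in the mitochondrial genome. YLR162W, of unknown function, went from 0.59 through 3.72 to 4.44. The ribosomal protein genes RPS3, RPS27B and RPL6A followed, and RPS3 went from -4.65 to -1.76, RPS27B from -4.82 to -1.98 and RPL6A from -4.80 to -1.97. The widest falls were in ALD6, the cytosolic acetaldehyde dehydrogenase (0.27, -0.80 and -2.85), ICY1 (3.10, 2.52 and 0.06) and CIT2, the peroxisomal citrate synthase (5.66, 4.31 and 2.95). CWP1, YNL134C and MIC60 made up the rest, and MIC60, of the inner membrane organising complex, went from 1.49 to -1.11.
The rise of ATP6 and ATP8 led to a look at all genes encoded in mitochondrial DNA, a set chosen after their values were seen and so given without a test of the set. Of 23 on the array, 16 were tested, of which 11 rose and none fell, although 7 of the 11 calls were lost under at least 1 alternative, and their medians were -0.12, 2.48 and 2.28 at 2, 4 and 8 h. All 16 were higher at 4 h and at 8 h than at 2 h, against 35.9% of all genes at 4 h and 27.7% at 8 h. These shares are with equal totals and depend on the scaling. Over the 6 scalings the median of 8 h minus 2 h of all genes tested ran from -0.38 to 0.23. COX1, a subunit of cytochrome oxidase, stood at 0.27, 3.11 and 2.21, and OLI1, of the ATP synthase, at 3.13, 5.17 and 5.44. Mitochondrial mRNAs of budding yeast lack poly(A) tails and the RNA was selected for poly(A), so the part of carry-over in these values was not tested.
The changes were then set against late nitrogen starvation at the same 3 times, by limma on the difference. Both starvations are ratios to the same kind of zero timepoint, so no correlation between them is given. Of 5548 genes, 916 were higher in nitrogen than in carbon starvation and 332 lower (16.5% and 5.98%). The split depended on the scaling: with no further scaling it was 864 and 835, with median centring 837 and 874, and with normexp and loess 612 and 778, and the median of all genes was 0.23 with equal totals and -0.05 with no further scaling. The counts also fell when a 4 h array was left out, to 516 and 160 without that of carbon and to 489 and 181 without that of nitrogen starvation, and they were 1377 and 548 with the time point as a block.
Genes for the use of poor carbon sources were lower in nitrogen starvation. Of the 15 gluconeogenesis and glyoxylate genes 13 were lower in nitrogen starvation, and of the 19 of beta-oxidation and the acetyl shuttle 15, at medians of -3.28 and -4.05, and under the 5 other scalings the counts were 14 and at least 16. PDH1, of propionate breakdown, was at 6.01, 6.21 and 4.93 in carbon and -1.88, -1.61 and -2.13 in nitrogen starvation (difference -7.58 ± 0.39, adjusted p = 4.89e-06). CIT2 was at -2.72, -2.32 and -2.93 in nitrogen starvation, a difference of -6.97. Both genes were picked for the size of this difference, so the lack of overlap of their values between the starvations adds nothing to it. ACS1 differed by -6.87 and CTA1 by -6.94.
Glucose-dependent and nitrogen-scavenging genes lay on the other side. HXT3 was at -0.59, -0.07 and -0.91 in nitrogen starvation, against values near -5 in carbon starvation (difference 4.67 ± 0.36, adjusted p = 1.89e-05). HXK2 differed by 4.15 and MIG2 by 5.05. Of 32 genes under nitrogen catabolite repression, 18 fell and 7 rose in carbon starvation, with a median of -0.69, and 23 were higher in nitrogen starvation (median -0.27 in carbon starvation with normexp and loess). The ammonium permease MEP2 stood at -3.24, -4.55 and -3.94 in carbon and 0.85, 0.71 and 0.46 in nitrogen starvation. The proline permease PUT4 and the NAD-dependent glutamate dehydrogenase GDH2 rose in carbon starvation, with means of 2.28 and 4.20.
Among growth genes the shares differed between lists, a difference that was not itself tested. Of the cyclins and cell cycle genes 22 of 34 were higher in nitrogen starvation, of the aminoacyl-tRNA synthetases 16 of 21, of the histones 7 of 10 and of the ergosterol genes 14 of 24, at medians of 1.68, 1.58, 1.51 and 1.51. Of the ribosomal protein genes 7 of 134 were, and of the ribosome assembly genes 5 of 142, at medians of 0.87 and 0.27. Of all 5548 genes 16.5% were, at a median of 0.23. Under the other scalings the counts were at least 15, 7, 5 and 14 in the first 4 lists and 1 in the ribosomal protein genes. With the time point as a block 62 of the ribosomal protein genes passed. ATG8 was at 4.71, 3.81 and 4.27 in nitrogen starvation, a difference of 0.02 ± 0.35 from carbon starvation.

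**Figure D5:**
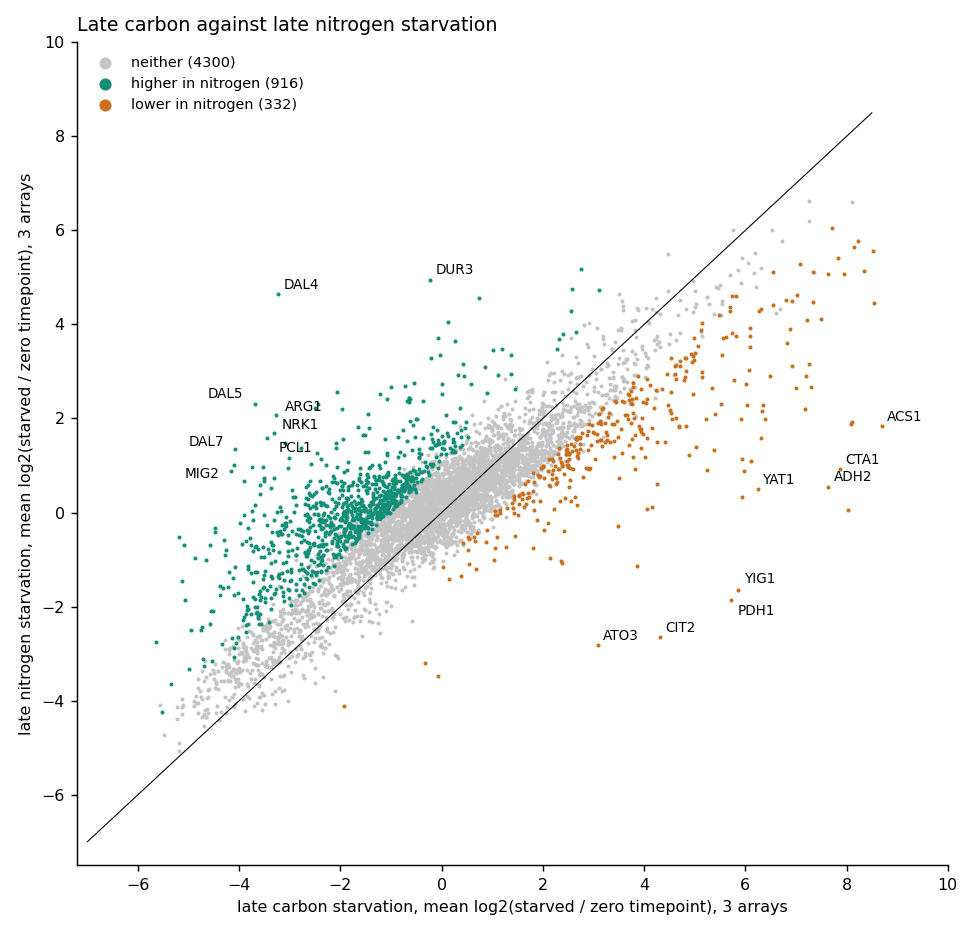
Mean log2(starved / zero timepoint) over 3 arrays of each gene in late carbon (horizontal) and late nitrogen starvation (vertical), with the line of equality; green genes are higher and orange genes lower in nitrogen starvation by limma, and the 8 genes with the largest differences each way by the rule in the methods are named. ACS1, CTA1, ADH2 and PDH1 lie far to the right and low, DAL4 and DUR3 to the left and high; both axes share the reference.

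Genes whose process the array's annotation calls unknown were spread unevenly over the calls. They made up 39.4% of the genes tested, 50.2% of those that rose (890 of 1774) and 31.1% of those that fell (655 of 2109).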

How the data were processed

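The 3 arrays of late carbon starvation and the 3 of late nitrogen starvation were used, of 12 in the series, grouped by their labels; the 6 arrays of the first hour, and their 6 columns of the series table, were not analysed here. The authors hybridised the starved sample (Cy5) and the zero timepoint (Cy3) to 2-colour Agilent arrays, and per the file headers Feature Extraction A.7.5.1 subtracted background, removed a spatial trend and normalized the dyes by LOWESS to give the deposited processed intensity of each channel. The table the authors deposited for the series holds log2 ratios of the same spots, which differed from the scanner log ratios by at most 0.0005, are limited to 6.644 either way, which lowers the genes with the largest rises, and served as an alternative.
After the study's methods, log2 of red over green was scaled to equal totals of the channels. Outlier-marked spots and those dim in each channel were dropped, and spots of a systematic name averaged (6256 genes; 4007 with 2 spots). Genes with a value on all arrays compared entered lmFit and eBayes of limma 3.58.1, run in R 4.3.3 (Benjamini-Hochberg adjusted p under 0.05), late carbon against 0 and late nitrogen minus late carbon. Where a channel was never above background, or saturated on every array of a group, the fold is a lower limit: the bright channel's mean against the mean over arrays of the higher of the lowest signal well above background and the dim signal. On simulated data, 95.5% of 200 genes moved by 3 (log2) were recovered in the first comparison (5597 genes) and 90.5% in the other (5548 genes). Of the genes called there, 5.45% and 1.09% were unmoved ones. Smaller moves were not simulated, so these values say nothing about the recovery of genes that changed less.
Symbols came from the R64 gene table for 5756 of 6256 names. Named genes were the 10 largest called rises and falls, 8 and 6 each way for the nitrogen and the 2 to 8 h comparisons, up to 4 per list, a set of well known genes, and the 5 largest limits each way; a few list members outside the rule are named to complete a statement, and some genes that met it are not reported here. The members and lists were chosen with earlier results of these data known. Alternatives were other backgrounds and scalings, filters, variance models, a block by time and leaving out each array. The number of arrays limits the precision, and all 6 arrays had the same scan date. The p-values rest on the spread between time points, with the variance of each gene moderated toward that of all genes. No sequence is printed.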

Additional observations from a re-analysis of the deposited data

Results flagged for a closer look

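The differences between late nitrogen and late carbon starvation were picked out because the 2 treatments' changes against the zero timepoint differed by limma's test of the difference itself, with 916 genes higher and 332 lower in nitrogen starvation. Among called genes whose difference had 1 sign at all 3 times and whose channels were both above background on all 6 arrays, large positive differences (log2, nitrogen minus carbon) were in DAL4 (7.87), DAL5 (6.01), DAL7 (5.43) and DUR3 (5.18), which serve the uptake and use of allantoin, its relatives and urea. The others were ARG1 of arginine synthesis (5.36), the glucose repressor MIG2 (5.05), the cyclin PCL1 (5.03) and the nicotinamide riboside kinase NRK1 (5.01). Large negative differences were in PDH1 of propionate breakdown (-7.58), YIG1 (-7.51), the alcohol dehydrogenase ADH2 (-7.09, a limit, since its red spot was saturated on all 3 carbon arrays) and the citrate synthase CIT2 (-6.97). CTA1, the peroxisomal catalase (-6.94), ACS1, the acetyl-CoA synthetase (-6.87), ATO3, of the ammonium and acetate transporter family (-5.90), and the carnitine acetyltransferase YAT1 (-5.75) were also named. CIT3 (-7.99), JEN1 (-6.21), ADY2 (-6.18) and DAL1 (5.11) differed by more than some of these but did not meet the ranking's conditions. The direction and the call of each of these 16 genes held under every alternative run.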

How the results depend on the processing

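Both counts of late carbon starvation stayed within 1.5 times under all alternatives. They ran from 1484 to 2026 raised and 1569 to 2156 lowered over the other fits. They were 1391 and 1724 where a mean change of at least 2-fold was also required. Of 3065 alternative values for 237 single genes 2967 kept the call, 86 lost it and 12 gained it. None changed sign where the gene was called in the main fit or in the alternative. Changes of sign in genes called in neither were not counted. Of the 38 list medians 12 moved under no alternative, and most that moved did so with a normexp background, whose added offset of 50 draws the ratios of dim spots toward 0. The counts of nitrogen minus carbon starvation moved more. Genes higher in nitrogen starvation were 1377 with the replicate block by time point and 489 to 1242 when 1 array was left out. Genes lower were 835 with no further scaling, 874 with median centring, 778 with normexp and loess, 562 with normexp and equal totals, 828 with the deposited series values, 548 with the replicate block and 160 to 356 when 1 array was left out. The labels give no replicate numbers, so the block pairs arrays by hour alone. The change between 2 and 8 hr of carbon starvation (the median of 8 h minus 2 h over genes, -0.39) was -0.0366 with no further scaling, -0.0367 with the series values, 0.10 with median centring, 0.11 with normexp and loess and 0.19 with normexp and equal totals. The pyruvate and ethanol list, with a median of 0.07, gave -0.0048 with both channels above background and from -0.19 (without the 2 h array) to 0.2343 (without the 8 h array) when 1 array was left out, and the phosphate list, at -0.27, gave 0.0178 with normexp and equal totals; the cause was not tested. Dim spots limit the lowest genes, each time rests on 1 array, dyes were not swapped, and the zero timepoint has no spread of its own.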

Other observations

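Genes of other poor-carbon routes, looked up after the results were known, rose as well. The propionate route, which ends in pyruvate by way of methylcitrate, had ICL2 (methylisocitrate lyase) at a mean of 4.82 and PDH1 at 5.71. CIT3 of this route was at 8.04, with its green signal above background on 2 arrays. The glycerol genes GUT1 (glycerol kinase) and GUT2 (mitochondrial glycerol-3-phosphate dehydrogenase) had means of 4.17 and 4.95, and the glycerol transporter STL1 was at least 21.2-fold higher because its green signal was never above background. ATO2 and ATO3, relatives of the acetate transporter ADY2, had means of 4.69 and 3.08. All values are log2 of starved over zero timepoint, over the 3 late carbon arrays.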
